A study of Mus musculus with 2 samples.

Results

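The genes described here are the mouse miRNA genes whose names carry a number of 3000 or more and that had at least 1 read in heart. Numbers in miRNA names are given in the order of registration, so these are late entries of the miRNA catalogue. Of 559 such genes in the GENCODE M21 annotation, 6 were left out by name or place (Mir3107, and genes within 1 miRNA cluster region of chromosome 12; none lay within Sfmbt2, the third exclusion). Of the other 553, 296 had reads on their own strand in the 2 libraries together and 257 had none. The tables hold 2202 miRNA genes in all. The 296 genes were chosen by their summed own-strand reads, so their levels are a description and carry no test. At the edge of the choice, 54 genes had exactly 1 read, and each of the 257 without reads could still have up to 3 reads at this depth.

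All RNA came from heart of adult males, 18 to 20 months old. Their strain was B6CASTF1/J, the F1 of a cross between C57BL/6J and CAST/EiJ, and no treatment is named. The 2 miRNA-seq libraries form 1 group, biological replicates 1 and 2, made from total RNA with a labelled size range under 30. Each has its own biosample but both carry the same donor record, so a p-value here speaks of these libraries only, and their spread may be technical. Replicate 1 held 3037063 reads in miRNA genes and replicate 2 held 5284446, which makes 1 read worth 0.329 and 0.189 reads per 1000000 (CPM). Of 7 heart muscle miRNA genes (Mir208a, Mir208b, Mir499 and the copies of miR-1 and miR-133a) all 7 had reads, with summed levels of 10834 and 14802 CPM. Mir499 (5559 and 5487 CPM) and Mir208a (5184 and 9154 CPM) made up nearly all of these sums. Each copy of miR-1 and miR-133a had only 2.63 to 27.7 CPM. Reads that map to several places are counted for no gene, so reads of such copies may be missing. Some markers of other cells differed between replicates 1 and 2. The sums were 7165 and 1219 CPM for 2 erythroid genes, 3847 and 19005 for 3 fibroblast genes, and 298 and 3874 for 7 epithelial genes. Single genes led the last 2: Mir21a (1899 and 15190 CPM), Mir205 (2.30 and 1963) and Mir200c (82.6 and 1652). Mir199b, Mir200b and Mir429 were lower in replicate 2. Other sums lay closer, such as 6557 and 7238 CPM for 4 leukocyte genes and 45692.5 and 40641 for 2 smooth muscle genes.

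A canonical miRNA is cut from a hairpin in a longer transcript by Drosha and then by Dicer, which leaves a duplex of a 5p and a 3p arm. A mirtron is a hairpin made of a whole short intron, which splicing releases in place of Drosha. In a tailed mirtron the hairpin ends at only 1 end of the intron, and the rest of the intron is trimmed away. The seed, bases 2 to 8 of the mature RNA, is the stretch that mainly sets which messages are bound.

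Mir3102 led the late-numbered genes, and its hairpin is a complete intron. The hairpin lies on chromosome 7 at 100882306 to 100882409, minus strand (GRCm38), and covers a 104-base intron of Arhgef17. Another 4 late-numbered genes with 10 or more reads also filled an intron, from its first base to its last. They are Mir7068 in Cherp, Mir7018 in Hspg2 (perlecan, a proteoglycan of basement membranes), Mir3547 in Baiap3, and Mir6958 in Dennd6b. Hairpins from the GENCODE transcripts are shown for 4 of the 5, 5′ to 3′, because their first and last bases, in capitals, are the splice donor and acceptor letters of the intron:
Mir3102: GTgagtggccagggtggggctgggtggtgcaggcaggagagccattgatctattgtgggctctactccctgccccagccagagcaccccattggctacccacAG
Mir7068: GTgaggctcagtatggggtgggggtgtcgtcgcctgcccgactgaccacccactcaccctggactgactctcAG
Mir7018: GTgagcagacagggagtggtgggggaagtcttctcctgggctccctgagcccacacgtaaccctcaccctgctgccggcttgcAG
Mir3547: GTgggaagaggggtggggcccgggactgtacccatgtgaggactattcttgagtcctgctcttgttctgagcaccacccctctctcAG

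The mature sequences of RefSeq (build GRCm38.p6) follow the same position. In these genes the 5p arm starts at the first base of the intron, so its seed, in capitals, begins with the second base of the splice donor:
miR-3102-5p: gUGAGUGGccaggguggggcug
miR-7068-5p: gUGAGGCUcaguauggggugg
miR-7018-5p: gUGAGCAGacagggaguggugggg
miR-3547-5p: gUGGGAAGagggguggggcccggga
miR-6958-5p: gUGGGAGAagaggcugcugugg
The 5 seeds start with UGAG or UGGG and none is the same as another of the 5. The seed of miR-3102-5p, UGAGUGG, is also that of miR-702-5p, and the seed of miR-6958-5p, UGGGAGA, is that of the 3p arms of miR-30c-1 and miR-30c-2. The 3p seeds of Mir7068 and Mir7018 are identical (CACCCUG), and Mir7023 carries it too:
miR-7068-3p: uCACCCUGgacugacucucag
miR-7018-3p: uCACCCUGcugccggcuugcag
Mir3102 holds a second duplex inside the outer one, so that RefSeq lists 4 mature RNAs for it:
miR-3102-5p.2-5p: gGUGGUGCaggcaggagagcc
miR-3102-3p.2-3p: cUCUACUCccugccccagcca
miR-3102-3p: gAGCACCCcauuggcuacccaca
The counts are per hairpin, so which of the 4 gave the reads cannot be read from them.

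Mir3102 had 503 reads in replicate 1 and 885 in replicate 2, which is 166 and 167 CPM. Its mean level was 166.5 ± 1.31 CPM (SD, n = 2), and by mean level it ranked 121 of the 2202 genes. It alone gave 22.1% of the reads of the late-numbered genes in replicate 1, with a 95% Wilson interval of 20.5 to 23.9, and 21.1% in replicate 2, with one of 19.9 to 22.4. The other intron-filling genes were far lower. Mir7068 had 8 and 13 reads, Mir6958 9 and 7, Mir3547 2 and 11, and Mir7018 4 and 9 in replicates 1 and 2. In all, 12 of the 296 genes filled an intron within 5 bases at both ends, and the 7 not yet named had 1 to 7 reads each.

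**Figure D1:**
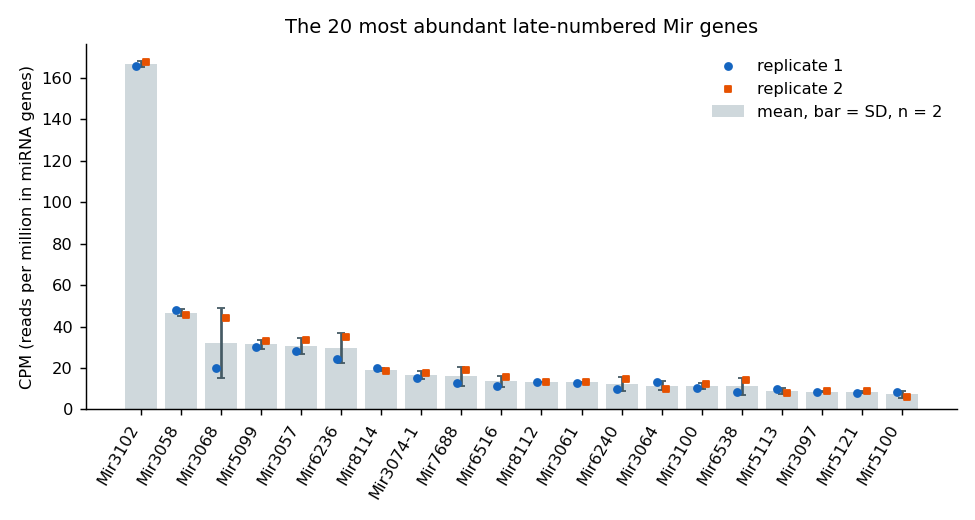
Level in CPM (reads per 1000000 reads in miRNA genes) of the 20 late-numbered Mir genes with the highest mean, with points for replicates 1 and 2 and bars for the mean ± SD (n = 2). Mir3102 stands at 166.5 CPM, Mir3058 follows at 46.7 CPM, and the points of Mir3068 lie furthest apart.

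As a group the late-numbered genes took a very small part of the heart's miRNA reads. Their reads numbered 2272 in replicate 1 and 4187 in replicate 2, which is 0.0748% (95% Wilson interval 0.0718 to 0.0779) and 0.0792% (0.0769 to 0.0817) of all reads in miRNA genes. The mean share was 0.0770% ± 0.00313 (SD, n = 2). By comparison, 324 Mir genes with numbers below 3000 and reads, chosen with the same places left out, took 74.5% ± 0.588. Intervals cover counting error only. The median late-numbered gene had 5 reads in the 2 libraries together, against 240.5 for the lower-numbered genes.

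Reads were spread unevenly over the 296 genes. There were 54 with 1 read, 154 with 2 to 9, 75 with 10 to 99 and 13 with 100 or more. The 10 genes with the highest mean level gave 50.2% of the group's reads in replicate 1 and 54.1% in replicate 2. At least 10 reads in each library were found for 38 of the 296 genes (12.8%), against 321 of the 735 miRNA genes with a read in the whole table (43.7%).

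After Mir3102 came genes of several kinds. Mir3058 (chromosome 10, 95559231 to 95559321, minus strand) lies deep inside an 11065-base intron of Nudt4, a phosphohydrolase gene. It had 146 and 240 reads, 48.1 and 45.4 CPM, for a mean of 46.7 ± 1.88 CPM (SD, n = 2). The gap between Mir3102 and Mir3058 was many times the spread of either.

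Another 4 genes had nearly the same mean level, and their order is within their spread. Mir3068 (minus strand of chromosome 12, 87437679 to 87437757, inside Alkbh1 and in its intron) had 61 and 232 reads, for 32.0 ± 16.8 CPM (SD, n = 2). A snoRNA gene that GENCODE also names Mir3068 overlaps its hairpin on the same strand without wholly containing it. Mir5099 (chromosome 12, 36816205 to 36816278, plus strand, outside other genes) had 91 and 174 reads, for 31.4 ± 2.10 CPM. Mir3057 (chromosome 10, 81271597 to 81271687, plus strand) overlaps a coding exon of Apba3 and had 85 and 176 reads, for 30.6 ± 3.76 CPM. Mir6236 (chromosome 9, 110281287 to 110281409, plus strand, outside other genes) had 74 and 184 reads, for 29.6 ± 7.39 CPM. Their mature sequences are shown with the seed in capitals, where RefSeq gives them, since these with Mir3102 and Mir3058 are the late-numbered miRNAs with the most reads:
miR-3058-5p: uCAGCCACggcuuaccuggaaga
miR-3058-3p: uUCCUGUCagccgugggugcc
miR-3068-5p: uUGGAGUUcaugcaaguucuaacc
miR-3068-3p: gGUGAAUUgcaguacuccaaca
miR-3057-5p: aUUGGAGCugagauucugcgggau
miR-3057-3p: uCCCACAGgcccagcucauagc
miR-6236: gCCGUCGCcggcagucagg
No 2 of these 7 sequences share a seed.

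The remaining 14 of the 20 most abundant genes lay between 7.31 and 19.2 CPM. Mir8114, at 19.2 ± 0.722 CPM (SD, n = 2), overlaps the start or end of Glul, the glutamine synthetase gene, without lying within it, and Mir8112, at 13.1 ± 0.0802 CPM, does the same at Krcc1. Neither is therefore counted as having a same-strand host. On the opposite strand, Mir8114 overlaps Teddm2 and Mir8112 overlaps Smyd1. Mir7688 (16.0 CPM) and Mir6240 (12.3 CPM) lie outside other genes. Mir6516 (13.5 CPM) overlaps an exon of the noncoding gene Snhg20 and a scaRNA gene, Gm26083, while Mir5121 (8.30 CPM) overlaps the snoRNA gene Snord33 in Rpl13a. Small nucleolar and Cajal body RNAs are guides for RNA modification and can themselves be cut into short RNAs.

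Within messenger RNA genes, Mir3061 (13.0 CPM) lay in an untranslated exon of Ppp2ca, which encodes the catalytic subunit of protein phosphatase PP2A. Mir5113 (8.82 CPM) lay in an untranslated exon of Tnrc6b, itself a partner of Argonaute in silencing. Mir6538 (11.1 CPM) and Mir5100 (7.31 CPM) lay inside introns of Rnf144a and Mief2, away from the intron ends. Mir3064 (11.5 CPM) sits in Ddx5, which encodes a helicase that works with Drosha, and ends 1 base past an intron. Mir3100 (11.3 CPM) and Mir3097 (8.63 CPM) end exactly on the last base of an intron of Dmpk, the kinase gene of myotonic dystrophy, and of Rgs12. Mir3074-1 (16.5 CPM) lies opposite Mir24-1 and is described with the strands.

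Host genes were the rule. Of the 296 late-numbered genes, 264 (89.2%) lay wholly within another gene on the same strand, 257 of them within a protein-coding gene (86.8%). The share was 59.9% among the 257 late-numbered genes without reads and 67.6% among the lower-numbered genes with reads. Of the 32 genes without a same-strand host, 16 lay outside other genes, 13 only opposite a gene and 3 across the edge of a gene. An intron of at least 1 transcript held 223 of the 296, and for 179 of these no annotated transcript has an exon there. Another 41 lay within a host but in no intron. Coding exons were touched by 34 hairpins and untranslated exons by 35.

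These hosts were almost all different. The 264 hosted genes lay in 258 first-listed host genes, and only 4 hosts held several. Gm20388 on chromosome 8 held 4 (Mir7687, Mir7237, Mir7080 and Mir7079, 13 and 22 reads together), while Ccnf, Skiv2l and Srebf1 held 2 each. Only the first-listed host is counted here, and Mir7687 lies within Gse1 as well as Gm20388. Within 10000 bases on the same strand, 14 of the 296 genes had another miRNA gene. The choice left out a cluster region of chromosome 12, and no such count was made for other miRNA genes. At Ccnf, Mir5134 had 6 and 7 reads and Mir6965 had 1 and 0. At Skiv2l, Mir6971 had 5 and 8 reads and Mir6970 had 1 and 0.

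Many of the hairpins inside host genes ended at the 3′ end of an intron. In 157 of the 296 genes (53.0%) the hairpin's last base lay within 5 bases of an intron's last base, and in 146 it was exactly that base. The hairpin's first base lay at an intron's 5′ end in 17, of which 12 filled the intron. Among the 257 late-numbered genes without reads, 61 (23.7%) ended at an intron's 3′ end, and among the 324 lower-numbered genes with reads 6 did (1.85%). Seen the other way, 157 of 218 late-numbered genes at an intron's 3′ end had reads (72.0%), against 139 of 335 others (41.5%). Reads are what the choice of genes used, so these shares are given without a test.

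**Figure D2:**
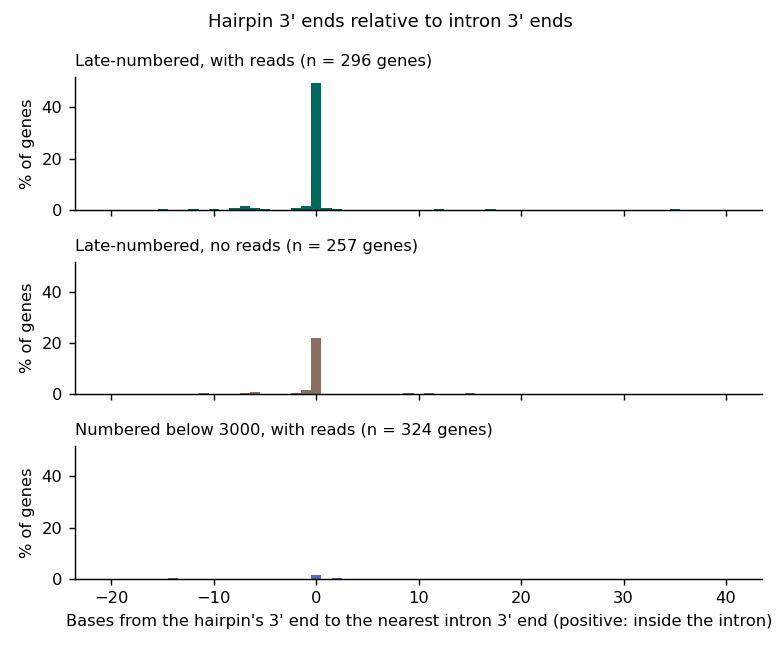
Distance in bases from a hairpin's 3′ end to the nearest intron 3′ end on the same strand, as a percentage of the genes of each set, for distances from -20 to 40. The late-numbered genes with reads have a single peak at 0 (146 of 296 genes), which is lower in those without reads and nearly absent in the lower-numbered genes (5 of 324).

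All 146 hairpins that end exactly on the last base of an intron end in AG, the acceptor letters. Hairpins of Mir3100 (chromosome 7, 19086828 to 19086892, plus strand) and Mir3097 (chromosome 5, 35021049 to 35021115, plus strand) show the form, with the acceptor in capitals and 243 and 642 bases of intron before the hairpin:
Mir3100: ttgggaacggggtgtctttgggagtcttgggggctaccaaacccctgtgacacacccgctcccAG
Mir3097: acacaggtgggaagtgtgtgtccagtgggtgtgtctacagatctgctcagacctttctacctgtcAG
The same letters end the 3p arm, which runs to the splice site:
miR-3100-3p: cUGUGACAcacccgcucccag
miR-3097-3p: cUCAGACCuuucuaccugucag
miR-7052-3p: gCUCUGCCcccuccuucccag
miR-6929-3p: cAGGUGCUgucuucuucuuccag
Of 142 mature 3p sequences of genes at an intron's 3′ end, 108 (76.1%) end in AG, against 13 of 71 (18.3%) of the late-numbered genes elsewhere and 23 of 257 (8.95%) of the lower-numbered genes. The first set was grouped by ending at a splice acceptor, so this contrast largely follows from the grouping.

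Genes at an intron's 3′ end were numerous but low. Those ending there without filling the intron (145 genes) had a median of 3 reads and at most 96, and 28 of them (19.3%) reached 10 reads. Hosted genes away from intron ends (102) had a median of 7 reads, and 43 of them (42.2%) reached 10. The 157 genes together gave 975 reads in replicate 1 and 1635 in replicate 2, or 42.9% and 39.0% of the group's reads, and Mir3102 gave 503 and 885 of them. After Mir3102, Mir3064 (40 and 52 reads), Mir3100 (31 and 65) and Mir3097 (26 and 46) led them.

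The number series differed in place and level. Of genes numbered 6000 to 6999, 86 of 207 had reads, and 69 of the 86 (80.2%) ended at an intron's 3′ end. Of those numbered 7000 to 7999, 112 of 180 had reads, and 75 of the 112 (67.0%) did. In contrast, the share was 11 of 45 for numbers 3000 to 3999, 2 of 35 for 5000 to 5999 and 0 of 18 for 8000 to 8999. Median reads of the genes with reads were 6, 12, 5, 3.5 and 2.5 in the series from 3000, 5000, 6000, 7000 and 8000. The 45 genes of the first series held 1073 and 2054 of the group's 2272 and 4187 reads in replicates 1 and 2. Mir3102 alone gave 503 and 885 of these.

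**Figure D3:**
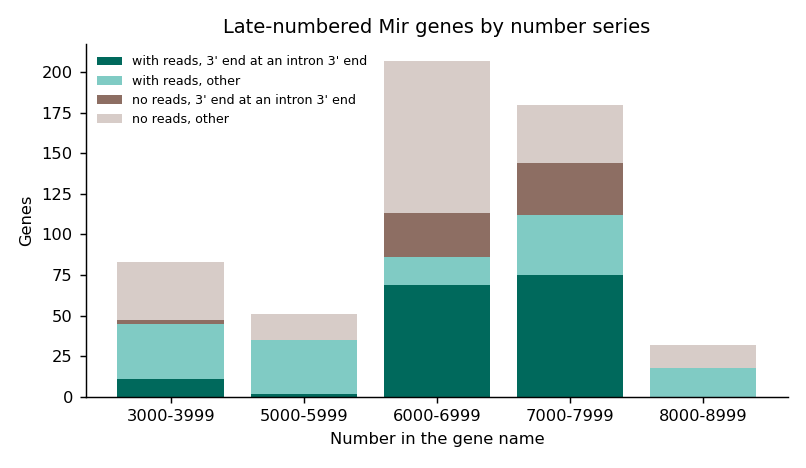
Number of late-numbered Mir genes in each number series, stacked by whether they had reads and whether the hairpin ended at an intron's 3′ end. In the 6000 and 7000 series, 69 of 86 and 75 of 112 genes with reads ended there, in the 8000 series 0 of 18.

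In sequence the hairpins of genes with reads were short and rich in G and C. Their median length was 68 bases, against 81 in late-numbered genes without reads and 83 in lower-numbered genes. The median GC content was 56.1%, against 51.8% and 49.7%. The predicted folding energy had a median of -0.413 kcal/mol per base, against -0.342 and -0.433, so that the genes with reads lay nearer to the lower-numbered genes. Hairpins that end at an intron's 3′ end had a median of 66 bases and 57.8% GC. An identical run of 22 bases in some other miRNA hairpin was found for 10 of the 296 (3.38%), against 26 of 257 (10.1%) of the late-numbered genes without reads and 60 of 324 (18.5%) of the lower-numbered genes. Multi-mapping reads stand in a summary line of each table and not under a gene, so reads of such copies may be missing from the counts.

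Other small RNA genes of GENCODE matched 6 of the 296 hairpins over 18 or more bases. The kinds searched were rRNA, snoRNA, snRNA, scaRNA, ribozyme, miscellaneous RNA and the rRNA and tRNA of mitochondria. Only genes that GENCODE lists under these kinds were searched, by exact match, and nuclear tRNA genes were not searched. Hairpins outside the 6, Mir6236 and Mir6240 among them, are therefore not shown to be free of rRNA or other small RNA sequence. In Mir3068, Mir6516, Mir5121 and Mir3069 the other gene overlaps the hairpin itself, so reads of either cannot be told apart there. Mir6929 matches the snoRNA gene Gm24313, and Mir8111 a miscellaneous RNA gene, Gm27896.

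Most seeds belonged to a single late-numbered gene. RefSeq lists a mature sequence for 273 of the 296 genes, 476 sequences in all, with 449 different seeds. A seed was shared by 2 or more of these genes in 24 cases and by 3 at most, and 49 of the 273 genes took part in such sharing. With detected lower-numbered genes (10 reads in each library), 18 of them shared a seed. Among these, miR-6240 has the seed of miR-330-3p:
miR-6240: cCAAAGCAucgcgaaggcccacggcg
Mir5620, whose 5p arm is shown, shares the seed CGAGGCA with Mir7689:
miR-5620-5p: aCGAGGCAggggcuuugacugug

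Replication followed the number of reads. Both libraries held reads of 180 of the 296 genes (60.8%), only replicate 1 of 45 and only replicate 2, the deeper one, of 71. Of genes with 2 to 4 reads, 42 of 90 were seen in both libraries, of those with 5 to 9 reads 51 of 64, and of those with 10 or more 87 of 88. The exception was Mir5119. Across the 38 genes with 10 reads in each library, the levels of the 2 libraries had a Pearson r of 0.938 (on log2 CPM) and a Spearman rank correlation of 0.885. This describes genes of 2 libraries, which are not independent replicates.

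**Figure D4:**
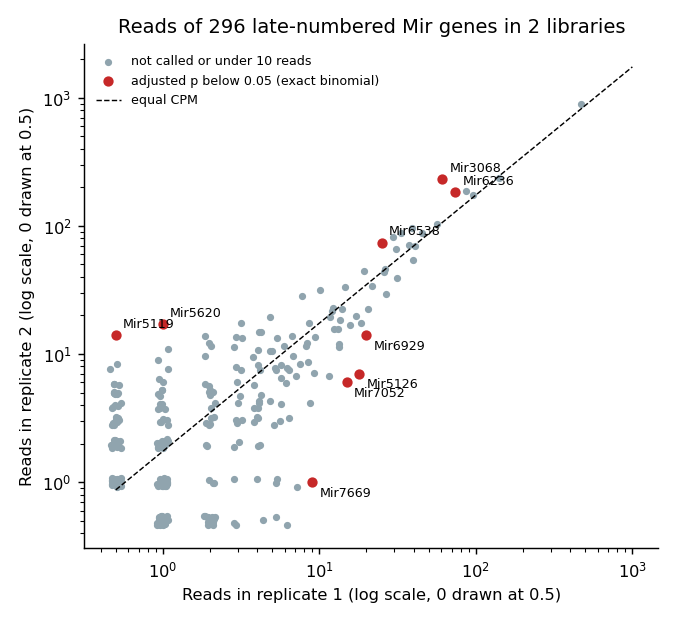
Reads of each of the 296 genes in replicate 1 and replicate 2 on log axes, with 0 drawn at 0.5 and points below the call slightly scattered. The dashed line marks equal CPM, and the 9 genes that differed beyond counting error are named, 5 above the line and 4 below it.

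Few late-numbered genes differed between the libraries. Of 88 genes with at least 10 reads in all, 9 (10.2%) differed beyond counting error (exact two-sided binomial test, Benjamini-Hochberg over all 424 genes tested). Over all 424 tested genes 52.8% did. The tested late-numbered genes had a median of 21 reads against 165 over all tested genes, and their 95% intervals for the log2 ratio had a median width of 2.95. Their median absolute log2 ratio was 0.53, against 0.50 over all tested genes, and 61 of the 88 lay within 1. Higher CPM in replicate 2 was seen in 46 and in replicate 1 in 42. Summed over the 296 genes, the log2 ratio was 0.08 (95% exact interval 0.01 to 0.16).

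In replicate 2, 5 of the 88 were higher (30.9% of all tested genes were). Mir3068, with 61 and 232 reads, stood at 1.13 on the log2 scale of replicate 2 over replicate 1 (0.72 to 1.56 at 95%; adjusted p = 3.29e-08, exact binomial test). Mir6236, with 74 and 184 reads, had 0.52 (0.12 to 0.92; adjusted p = 0.0194, exact binomial test), and 0.27 with the call lost when scaled by all reads of the table (adjusted p = 0.266). Mir6538, with 25 and 74 reads, had 0.77 (0.10 to 1.48; adjusted p = 0.0403, exact binomial test), and this call was lost with DESeq2 size factors (adjusted p = 0.0541), with scaling by all reads (adjusted p = 0.205) and with no minimum of reads (adjusted p = 0.0681). Mir5620, on the strand opposite Clcn4, had 1 and 17 reads (3.29, 0.61 to 8.67; adjusted p = 0.0115, exact binomial test). In the either-strand column Mir5620 had 1.37 and the call was lost (adjusted p = 0.0560, exact binomial test). Mir5119, in an intron of Cdk12 (chromosome 11, 98262606 to 98262662, plus strand), had 0 and 14 reads. With the 0 set at 3 reads, its level was 2.68-fold higher in replicate 2. The 95% interval of its log2 ratio began at 0.93 and had no upper end (adjusted p = 0.00747, exact binomial test).

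In replicate 1, 4 of the 88 were higher (21.9% of all tested genes were). Mir5126, opposite Dner on chromosome 1 (84695839 to 84695915), had 18 and 7 reads, at -2.16 on the same log2 scale (-3.66 to -0.83; adjusted p = 0.00125, exact binomial test). Mir7669, in an intron of Ubap2l, had 9 and 1 reads (-3.97, -9.42 to -1.12; adjusted p = 0.00187, exact binomial test). Mir7052, at the 3′ end of an intron of Josd2, had 15 and 6 reads (-2.12, -3.77 to -0.67; adjusted p = 0.00497, exact binomial test). Mir6929, at the 3′ end of an intron of Ptges3l, had 20 and 14 reads (-1.31, -2.41 to -0.26; adjusted p = 0.0226, exact binomial test). Of the 9, then, Mir3068 alone has over 200 reads in a library, and 6 have 34 reads or fewer in all.

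In edgeR's exact test with the common dispersion, 0 of the 88 passed, against 2.83% of all tested genes. That dispersion comes from the same 2 libraries whose difference is tested, so few calls are built in and the count does not show that the 9 differences lie within replicate spread. Without adjustment 2 had a p below 0.05 in edgeR's exact test, Mir5119 (p = 0.0121) and Mir7669 (p = 0.0470). The erythroid, fibroblast and epithelial marker sums given above also differ between the libraries, and their part in these calls was not tested.

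In 285 of the 296 genes (96.3%) no read lay on the opposite strand, against 684 of all 735 genes with a read (93.1%). The genes were chosen by own-strand reads and most had few reads, so a low count of opposite reads is partly fixed by the choice. Of the 88 with at least 10 reads, 83 had none (94.3%), against 389 of 424 over all genes (91.7%). Of the other 11, 3 had more reads opposite than on their own strand, and each of these lies opposite a better known miRNA gene. Mir3074-1 (minus strand of chromosome 13, 63301199 to 63301283, inside Fancc and in its intron) had 46 and 94 reads of its own, beside 379 and 588 of Mir24-1 on the plus strand. Its share of the reads counted for the pair was 10.8% in replicate 1 (8.21 to 14.1, 95% Wilson) and 13.8% in replicate 2 (11.4 to 16.6). Mir3065 (chromosome 11, 120014767 to 120014853, plus strand), opposite Mir338, had 3 and 17 reads against 439 and 1193, a share of 0.679% (0.231 to 1.98) and 1.40% (0.879 to 2.24). Mir3074-2 (chromosome 8, 84208825 to 84208907, minus strand), opposite Mir24-2, had 5 and 0 reads against 755 and 1058, a share of 0.658% (0.281 to 1.53) in replicate 1. The 0 of 1058 in replicate 2 has an upper Wilson bound of 0.362%.

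RefSeq lists mature RNAs on both strands of these sites. The arms are shown with the arm of the opposite gene below each, seed in capitals:
miR-3074-5p: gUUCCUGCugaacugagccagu
miR-24-3p: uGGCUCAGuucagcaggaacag
miR-3065-5p: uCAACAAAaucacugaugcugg
miR-338-3p: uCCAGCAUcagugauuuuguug
On chromosome 13, miR-3074-5p spans 63301249 to 63301270 and miR-24-3p 63301251 to 63301272. On chromosome 11, miR-3065-5p spans 120014780 to 120014801 and miR-338-3p 120014781 to 120014802. The mature miR-3074-5p is the same in Mir3074-1 and Mir3074-2, as miR-24-3p is in Mir24-1 and Mir24-2. Reads of these arms that map to both places are not in the gene counts, so the shares at these pairs cover only the reads that remain. In the deposited column for either strand, Mir3074-1, Mir3074-2 and Mir3065 each had 0 reads in both libraries. For 284 of the 296 genes that column equalled the own-strand column in both libraries.

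**Figure D5:**
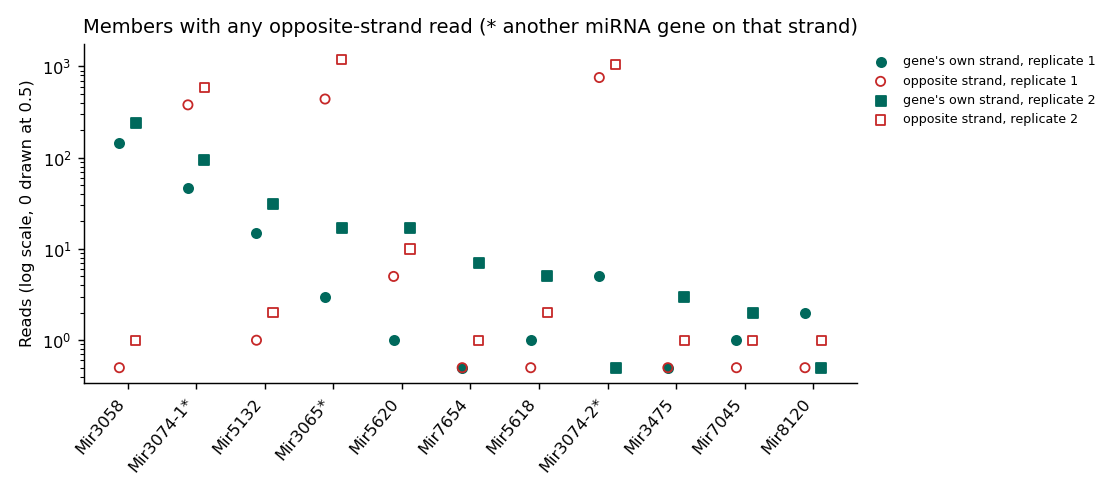
Reads on the gene's own strand (filled) and on the opposite strand (open) in replicates 1 (circles) and 2 (squares) for the 11 genes with any opposite-strand read, on a log axis with 0 drawn at 0.5. In Mir3074-1, Mir3065 and Mir3074-2, marked with an asterisk for the miRNA gene opposite, the opposite strand is higher in both libraries.

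At the other 8 genes no miRNA gene is annotated on the opposite strand, and reads there were few. Apart from Mir5620, they numbered 0 to 2 in each library. Mir3058 had 0 and 1 opposite reads beside 146 and 240 of its own, and Mir5132 had 1 and 2 beside 15 and 31.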

How the data were processed

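The authors deposited raw counts of reads for each miRNA gene, a table for each library, aligned to mm10 per the labels and annotated with GENCODE M21 per the text beside each table. No aligner or counter is named in the labels. Each table has 4 summary lines, left out here, and 3 count columns. Column 3 held more reads in miRNA genes than column 4 in both libraries and was taken as the gene's own strand. All gene IDs matched GENCODE M21, which gave names, hosts, introns and hairpins. Mature sequences came from RefSeq (GRCm38.p6). A place at an intron end means within 5 bases. Folding used RNAfold 2.7.2.

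CPM is reads per 1000000 reads in miRNA genes. A gene whose reads summed to 10 or more was tested by an exact binomial test given the library totals (SciPy 1.17.1), with Benjamini-Hochberg adjustment over all genes tested and a threshold of 0.05. A count of 0 was set to 0.5 in log2 ratios. The test was checked on simulated counts that held counting error only, so the check does not cover other spread between the libraries. Alternatives used edgeR 4.0.16 and DESeq2 1.42.0 (size factors only). No molecular identifiers are recorded, so intervals cover counting error only. Named were the 20 genes with the highest mean CPM, all called genes, those with more opposite-strand reads and those filling an intron with 10 or more reads. The members and lists were chosen with earlier results of these data known.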

Additional observations from a re-analysis of the deposited data

Results flagged for a closer look

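Mir5620 (chromosome 7, 7298891 to 7298946, plus strand) had reads on the strand where neither it nor another miRNA gene is annotated, which the comparisons do not use. They numbered 5 in replicate 1 and 10 in replicate 2, above the 3 reads that a count of 0 allows, beside 1 and 17 on its own strand. The opposite strand is that of Clcn4.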

How the results depend on the processing

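The count of 9 genes that differed between the libraries lay between 6 and 11 under other scalings, read minimums and the either-strand column, and was 0 with the common dispersion in edgeR (2 at an unadjusted p below 0.05). The 5 higher in replicate 2 became 3 when scaled by all reads of the table, 3 with at least 20 reads and 0 in edgeR. The 4 higher in replicate 1 became 8 when scaled by all reads, 7 with no minimum and 0 in edgeR. Scaling by all reads kept 7 of the 9 genes and lost Mir6236 (adjusted p = 0.266) and Mir6538 (adjusted p = 0.205). Mir6538 was also lost with no minimum, and Mir5620 in the either-strand column (adjusted p = 0.0560). No direction of the 9 was reversed. The 38 genes with 10 reads in each library became 64 at 5 reads and 22 at 20 reads, and leaving out a library gave 41 to 62. The mean share of reads was 0.102% in the either-strand column, whose total is smaller. With 10 reads in all, the number of genes fell from 296 to 88, and leaving out a library gave 225 to 251. Within 15 bases, 27 hairpins filled an intron instead of 12. Alternatives for intron 3′ ends, for their genes' median reads, for mean CPM and for leaving out genes at other small RNA genes were chosen after seeing the data. Depth limits most genes: 208 of 296 had too few reads to test. No paired analysis was possible because there is 1 group.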
